A study of Homo sapiens with 12 samples.

Results

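The 5′ untranslated regions (5′ UTRs) described here are those of 997 genes, out of 38716 gene symbols in the deposited tables. A gene was a member when its 5′ UTR held at least 20 footprints summed over the 6 Ribo-seq libraries, its coding sequence (CDS) at least 50 footprints in the same libraries, and its 5′ UTR at least 20 reads summed over the 6 RNA-seq libraries. MYNN, DPP9 and 1 further gene were then set aside, which left 994 members. By comparison, 8445 symbols had any 5′ UTR footprint. Members were thus chosen by these summed reads alone, so that depth and the presence of 5′ UTR footprints are no finding. The AUG-initiated main open reading frame of an mRNA is reached by ribosomes that scan through the 5′ UTR. An upstream AUG on the way can start a short upstream open reading frame (uORF), which usually lowers initiation at the main start. In some mRNAs, such as that of the stress-response factor ATF4, uORFs also let the main protein be made when general initiation is reduced.

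Ribosome footprints (Ribo-seq, fragments of mRNA shielded by a ribosome from RNase I) and RNA-seq reads were measured in IMR90 cells, fibroblasts of a human lung cell line in long use. Proliferating cells (Pro) were compared with cells passaged to replicative exhaustion, the senescent state (Sen), with 3 lysates per state and 1 Ribo-seq and 1 RNA-seq library from each lysate. No gene was altered in either group. All cells were lysed with cycloheximide, an elongation inhibitor, and the protocol names a pair of IMR90 isolates without saying which lysate came from which, so isolate and state cannot be told apart. The RNA-seq files of the Pro cells also carry a tag that resembles the solvent DMSO, which no label explains. All 9 fibroblast markers exceeded 1 CPM (reads scaled to a common library total) in RNA-seq, with summed levels of 32653 to 36817 CPM in Pro and 28845 to 33554 CPM in Sen. The 5 epithelial markers summed to at most 1.76 CPM in Pro and 1.20 CPM in Sen, with SFTPC at 0 throughout. Summed endothelial markers were 56.4 to 64.5 CPM in Pro and 89.4 to 102 CPM in Sen, with CDH5 at 0, and summed leukocyte markers were 19.8 to 22.1 and 30.9 to 33.9 CPM, with CD3E at 0. In each of these last 2 lists 1 of 5 markers exceeded 1 CPM, and the part of such cells in the results was not tested.

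Depth set the limits of every comparison. Over the members, 5′ UTR footprints numbered 10908 in Pro 2, 23326 in Pro 3, 18515 in Sen 1 and 2949 in Sen 3, but 1372 in Pro 1 and 478 in Sen 2, which were therefore left out of the tests. In RNA-seq the same regions held from 349183 to 630220 reads per library. A median member had 33 footprints over the 6 libraries, and 405 members had fewer than 30. At the lower edge of the rule, 50 members had exactly 20 footprints (AHDC1 is the first of them), whereas ANXA1 and 1 other gene had 19.3 and stayed outside. For CDS footprints, ARHGAP22 was inside at 50 and FAM229B outside at 49. PRR12, with 34 reads, had the fewest 5′ UTR RNA-seq reads of any member.

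Some annotated 5′ UTRs held more footprints than their mRNA could supply and lay beside tRNA genes. MYNN had 27718 5′ UTR footprints against 146 RNA-seq reads, and the tRNA gene TRV-AAC1-1 lies within 2000 bases of its 5′ end. DPP9, near TRG-TCC1-1 and TRV-CAC3-1, had 12999 footprints against 406 RNA-seq reads. TRIM7 was no member, with 4 CDS footprints. The set-aside features took 21.2% of all 5′ UTR footprints in Pro 3, 31.2% in Pro 2, 65.9% in Sen 1 and 94.8% in Sen 3. In the shallow libraries they took 69.9% in Pro 1 and 98.6% in Sen 2. The share was higher in both deep senescent than in both deep proliferating libraries, but Pro 1 lay above Sen 1, and its part in the state differences described next was not tested.

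The upstream start codons of members that the results turn on are shown first. Each line gives 12 bases, an upstream ATG in capitals and the 12 bases after it, 5′ to 3′ in the sense of the mRNA, read from GENCODE transcripts on GRCh37. The build of the deposited tables is not given in the sources used here, so a transcript was matched to a member by its symbol alone (989 of 994 kept members). ATF4 (chr22:39915700-39918688, plus strand) has 3 upstream ATGs in a 5′ UTR of 282 bases: the first is followed at once by a stop codon, the second opens a uORF of 3 codons, and the third opens a frame of 59 codons that overlaps the main start.
ATF4 upstream ATG 1: gcccgcccacagATGtagttttctctg
ATF4 upstream ATG 2: tccacggccaccATGgcgtattagggg
ATF4 upstream ATG 3: gcggcttaagccATGgcgcttctcacg
ATF4 main start: aagcaccgcaacATGaccgaaatgagc

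PPP1R15A (chr19:49375469-49379316, plus strand) and PPP1R15B (chr1:204365620-204381015, minus strand) encode the regulatory subunits that bring a phosphatase to the initiation factor eIF2α. Each has 2 upstream ATGs in the matched transcript, and the one nearer to the main start opens a uORF of 26 codons in PPP1R15A and of 51 codons in PPP1R15B. IFRD1 (chr7:112062942-112121072, plus strand), a transcriptional co-regulator, has a uORF of 52 codons. These windows are shown because the genes belong to the list of stress-responsive uORF mRNAs described below.
PPP1R15A upstream ATG 2: cctgagggtgagATGaacgcgctggcc
PPP1R15B upstream ATG 2: ttccccgccaggATGgaagtcgcatca
IFRD1 upstream ATG 1: ctagagagaaacATGtatcgttttcga

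Further members of high occupancy carry an upstream ATG that is followed directly by a stop codon, a start-stop element on which a ribosome can initiate but not elongate: MORF4L1 (chr15:79102829-79190481, plus strand), a subunit of the NuA4 acetyltransferase complex, GAS6 (chr13:114523522-114567049, minus strand), a ligand of the TAM receptor kinases, TP53I11 (chr11:44907454-44972857, minus strand), a p53-inducible gene, and CAMK2N1 (chr1:20808884-20812703, minus strand), an inhibitor of the kinase CaMKII.
MORF4L1 upstream ATG 1: atccggcccaggATGtagagctggcag
GAS6 upstream ATG 1: gccgccgccgcgATGtgaccttcaggg
TP53I11 upstream ATG 1: acgggcggcgcgATGtgaggcgtccga
CAMK2N1 upstream ATG 1: agcgcgccgaggATGtgagtcctgctc

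The first question was how many ribosomes sat in the 5′ UTR relative to the CDS of the same mRNA. Over the 4 deep libraries, the median member had 7.10 5′ UTR footprints per 100 CDS footprints, with quartiles of 2.58 and 16.7 and a range from 0.0627 to 268. At least 20 per 100 were found in 198 members, and 13 had more footprints in the 5′ UTR than in the CDS. The highest ratios belonged to VPS53 (268 per 100), a subunit of an endosome tethering complex, ATF4 (218) and PTP4A2 (188), a phosphatase of the PRL family. VPS53 also had 305 to 975 5′ UTR reads per 100 CDS reads in RNA-seq, so its ratio follows the read distribution of the RNA as listed. A footprint ratio therefore has to be read against the RNA-seq ratio of the same lysate.

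Relative 5′ UTR occupancy was taken as the log2 of the footprint ratio over the RNA-seq ratio, with 0.5 added to each count, which cancels region length. A value of 0 means that ribosomes were as dense in the 5′ UTR as in the CDS. The median member stood at -1.91 (mean of lysates Pro 2, Pro 3, Sen 1 and Sen 3), with quartiles of -3.44 and -0.58. In 60 members the value was above 0 in all 4 lysates. Among the 92 members with at least 100 5′ UTR footprints in the deep libraries, ATF4 stood highest at 2.20 ± 0.50 (SD, n = 4 lysates), with 2.77 and 1.90 in Pro and 2.44 and 1.69 in Sen. It was followed by MORF4L1 at 1.66 ± 1.27, GAS6 at 1.49 ± 0.95 and ZBTB38, a methyl-DNA-binding zinc finger protein, at 1.41 ± 0.66. SMURF2 (1.12), LRP1 (1.09), TPGS2 (1.08), TP53I11 (0.99), CAMK2N1 (0.97) and PTP4A1 (0.83) completed the first 10. Neighbours in this order differed by less than the larger of their SDs over the lysates. Means and SDs span both states, so an SD includes any difference between Pro and Sen, as in MORF4L1 described below.

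At the other end stood very abundant mRNAs with short 5′ UTRs. EEF1A1, the elongation factor that brings aminoacyl-tRNA to the ribosome, was lowest at -5.80 ± 1.28, with 0.534, 0.278, 0.180 and 0.0482 5′ UTR footprints per 100 CDS footprints in Pro 2, Pro 3, Sen 1 and Sen 3. CCN2, a matricellular protein, was at -5.32, the cytoskeletal actin ACTB at -5.03, and the actin-binding thymosins TMSB10 and TMSB4X at -4.96 and -4.68. None of these 5 has an upstream ATG in the matched transcript. EEF1A1, ACTB and the thymosins have near-identical gene copies or pseudogenes, between which reads may have been split.

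Members with an upstream ATG had higher relative occupancy than members without one. The median was -0.94 in 597 members with an upstream ATG and -3.69 in 392 without, and the corresponding footprint ratios were 12.4 and 2.45 per 100. Members were ranked by relative occupancy into 4 groups of equal size. An upstream ATG was found in 9.72% of members in the lowest group, 49.0% in the next, 87.0% in the third and 95.6% in the highest. Across all 19191 protein-coding genes it was found in 42.8%, and across the kept members in 60.4%. Members also had longer 5′ UTRs than all protein-coding genes, with medians of 246 and 136 bases. Members were admitted by their 5′ UTR footprints and expression, so neither difference from all protein-coding genes can be separated from that rule. GC content showed no such gradient, with a Pearson r of 0.0022 across 989 members against 0.46 for the log2 length. Genes are not independent replicates, and all points share the same libraries, so these are descriptions.

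The contrast was present within classes of length and of expression. In 5′ UTRs of up to 150 bases, the median occupancy was -1.07 with an upstream ATG (84 members) and -4.47 without (196 members). Above 150 and up to 300 bases it was -1.07 (178) and -3.43 (141), and above 300 bases -0.84 (335) and -2.63 (55). Members were next split into 3 equal groups by CDS footprints. In the group with the fewest, the medians were -0.39 with and -2.59 without an upstream ATG, and in the group with the most they were -1.96 and -4.28. The threshold of 20 footprints keeps weakly expressed genes of low occupancy out of the membership, which by itself shifts the levels between these groups.

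**Figure D1:**
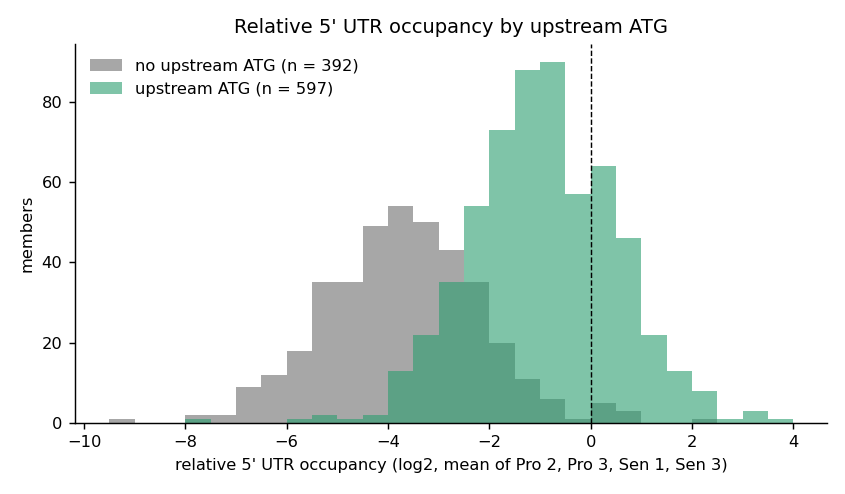
Histogram of relative 5′ UTR occupancy (log2, x axis) over members (y axis, number of members per bin), for members without (grey) and with (green) an upstream ATG in the matched transcript. The dashed line at 0 marks equal ribosome density in 5′ UTR and CDS; the medians are -3.69 without and -0.94 with an upstream ATG.

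Start-stop elements followed the same gradient. They were found in 0 of 247 members of the lowest occupancy group and 14 of 247 in the next. In the third group 32 of 247 held one, and in the highest 40 of 248. From lowest to highest, the same groups held 24, 121, 215 and 237 members with an upstream ATG of any kind. The start-stop gradient was not separated from that one. Of the 10 members of highest occupancy named above, 6 carried one (ATF4, MORF4L1, GAS6, TP53I11, CAMK2N1 and ZBTB38), compared with 12 of 91 matched members with at least 100 footprints. Among members with any upstream ATG the share was 14.4%, near the 12% of all protein-coding genes with an upstream ATG. Median occupancy was -0.68 in the 86 members with a start-stop element and -1.04 in the 511 with other upstream ATGs. This feature was chosen after the values were seen.

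For 33 members the 5′ UTR overlies coding sequence that GENCODE assigns to another gene on the same strand. Among them are MIEF1, a mitochondrial fission factor whose 5′ UTR overlies the microprotein gene MIURF, and ASNSD1, whose 5′ UTR overlies ASDURF. MIEF1 had 27.3, 53.6, 45.5 and 100 5′ UTR footprints per 100 CDS footprints in Pro 2, Pro 3, Sen 1 and Sen 3, from 3 to 15 footprints per library. ASNSD1 had 59.1, 38.0, 20.6 and 0. Mean relative occupancy was 0.75 for both. The 5′ UTR overlies coding sequence of another isoform in 63 members and of a gene on the opposite strand in 4, and the strand rule of the tables is not given in the sources used here. For such members reads of the overlapping frame and of the 5′ UTR cannot be told apart.

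The second question was whether 5′ UTR footprints differed between the states. Summed over the members, 5′ UTR footprints per 100 CDS footprints were 6.86, 4.20 and 3.57 in Pro 1 to 3 and 2.72, 2.23 and 1.25 in Sen 1 to 3, so every senescent library lay below every proliferating library. The means were 4.88 ± 1.74 and 2.07 ± 0.75 (SD, n = 3), and in the deep libraries 3.89 and 1.98. In RNA-seq of the same lysates the ratio overlapped between the states, with 18.5, 19.9 and 25.1 in Pro and 19.7, 19.3 and 21.0 in Sen. As a share of 5′ UTR and CDS footprints together, the 5′ UTR held 3.45% in Pro 3 (Wilson 95% confidence interval 3.41% to 3.50%) and 1.23% in Sen 3 (1.19% to 1.28%). These intervals cover counting error only, and Sen 1 and Sen 3 lay further apart than they allow.

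Per member, the median change of the log2 ratio between the states was -1.06 in the 4 deep libraries. It was -0.50 without Sen 3 and -1.52 without Sen 1, so the size of this shift rests on which senescent library is used. The ratio was lower in both senescent libraries than in both proliferating libraries in 530 of 994 members (53.3%) and higher in 50 (5.03%). Over all 2109 genes tested, the same held for 45.6% and 6.07%. Because 2 libraries per state cannot give an exact permutation p below 0.333, the shift itself was not tested. Of the members, 22 had fewer than 3 footprints in the deep senescent libraries and 3 fewer than 3 in the deep proliferating ones.

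**Figure D2:**
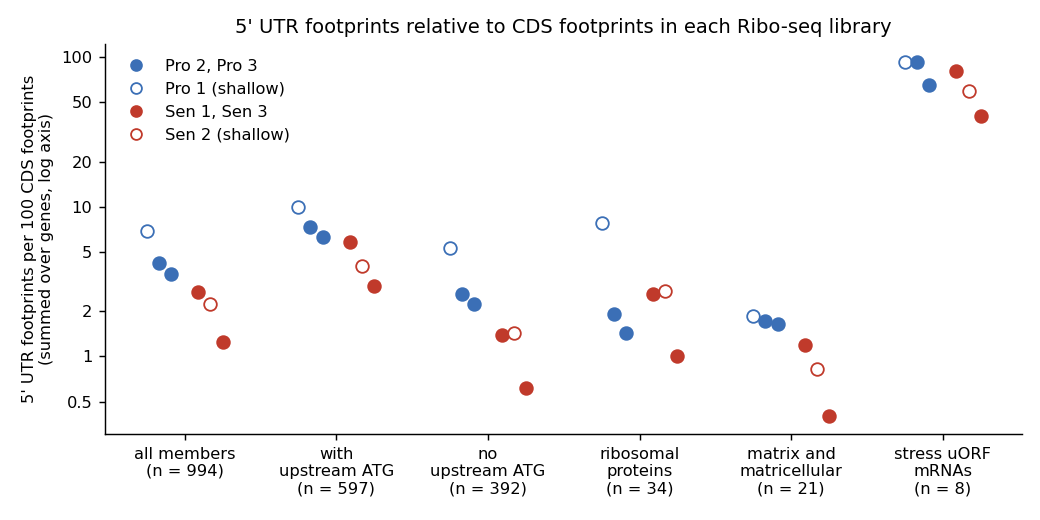
5′ UTR footprints per 100 CDS footprints, summed over groups of members (y axis, log scale), in each of the 6 Ribo-seq libraries; blue points are Pro, red points Sen, open points the shallow libraries Pro 1 and Sen 2. All 3 Sen points lie below all 3 Pro points for all members, for members with and without an upstream ATG and for matrix mRNAs, whereas the states overlap for ribosomal proteins and stress uORF mRNAs.

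Members with an upstream ATG had 7.30 and 6.25 5′ UTR footprints per 100 CDS footprints in Pro 2 and Pro 3 and 5.86 and 2.95 in Sen 1 and Sen 3. Members without one had 2.62 and 2.25 in Pro and 1.40 and 0.619 in Sen. The ratio of the deep Sen mean to the deep Pro mean was 0.650 with and 0.414 without an upstream ATG. In the shallow libraries the values were 9.95 in Pro 1 and 4.05 in Sen 2 with, and 5.29 and 1.44 without an upstream ATG. Both classes were thus lower in Sen in all libraries. These sums weight each member by its abundance, and whether the classes differ in their change was not tested.

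Against this common shift, single members were tested with edgeR's quasi-likelihood test on 5′ UTR and CDS reads of the 4 deep libraries, centred on the typical gene by TMM factors, with Benjamini-Hochberg adjustment over 2109 genes and a threshold of 0.15. A rise or fall below is a change relative to the typical gene. The footprint ratio rose in 16 members and fell in 2, so that 18 of 994 were called, where 1.04% of all genes tested were called. The background was 0.901% for rises and 0.142% for falls, against 1.61% and 0.201% of the members. At an unadjusted p under 0.05 by edgeR there were 127 of 994 members. The share over all genes tested was not counted at this level, so the number is no result about the members. The same holds for such counts given below. With RLE factors in place of TMM the calls were 21 higher and 15 lower, and the split between directions therefore depended on the centring.

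NHP2, a core protein of box H/ACA ribonucleoproteins and telomerase, gave the clearest rise. It had 16.9 and 9.35 5′ UTR footprints per 100 CDS footprints in Pro 2 and Pro 3 and 80.4 and 103 in Sen 1 and Sen 3, without overlap. The RNA-seq ratio ranged from 17.9 to 49.2 in Pro and from 24.3 to 36.3 in Sen. The log2 change was 3.50 ± 0.58 (SE, edgeR adjusted p = 3.71e-06). NHP2 was called in 11 of 14 alternative settings and was the 1 member still called when all 6 libraries were fitted. Its matched 5′ UTR of 68 bases holds a single upstream ATG at base 6.

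MORF4L1, whose start-stop element is shown above, had 6.65 and 8.37 per 100 in Pro and 26.6 and 23.7 in Sen. Its log2 change was 2.40 ± 0.53 (edgeR adjusted p = 0.00246), and it was called in 8 of 14 settings. CHN1, a Rac GTPase-activating protein with 4 upstream ATGs, had 21.6 and 14.5 in Pro and 36.1 and 69.0 in Sen, with a log2 change of 2.11 ± 0.63 (edgeR adjusted p = 0.0977). These 3 were the called rises with an upstream ATG in the matched transcript. The other 13 have none, and 5 of them are ribosomal proteins. Thus 3 of 597 members with (0.503%) and 13 of 392 without an upstream ATG (3.32%) were called higher, beside 0.901% of all genes tested. Members without an upstream ATG also had more CDS footprints in every class of 5′ UTR length, and this contrast was not tested.

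CTSC, the lysosomal protease cathepsin C, rose from 0.587 and 0.172 per 100 in Pro to 4.30 and 1.79 in Sen, on 3 and 2 footprints in Pro and 76 and 10 in Sen. Its log2 change was 3.95 ± 0.78 (edgeR adjusted p = 0.000337). CALM2, a calmodulin gene, rose from 0.177 and 0.0336 to 0.792 and 0.539 on few Pro footprints. PPIA, the peptidyl-prolyl isomerase cyclophilin A, had 1.26 and 0.456 in Pro but 8.06 in Sen 1 and 0.884 in Sen 3, so its plain ratio overlapped between the states. For UBAP2, a ubiquitin-associated protein, the values were 7.32 and 2.48 in Pro against 28.6 and 20.6 in Sen. TM9SF2, a membrane protein of the secretory pathway, had 0.495 and 1.02 against 6.62 and 2.50.

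H2AFJ, a replication-independent histone H2A variant, had no 5′ UTR footprint in Pro 2 or Pro 3 and 22 and 2 in Sen 1 and Sen 3. Against a floor of 3 reads over both Pro libraries its ratio was at least 5.68-fold higher in Sen. This bound rests almost wholly on Sen 1, since Sen 3 alone held fewer footprints than that floor. H2AFJ also met the footprint rule for members mainly through the same Sen 1 footprints, so its selection and its rise are not independent. It was not tested without Sen 1. The remaining called rises were B2M, the light chain of MHC class I, MT2A, a metal-binding metallothionein, and 5 ribosomal proteins. Histone, metallothionein, cyclophilin and ribosomal protein genes have close copies, and their values are uncertain where reads were split.

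The falls were FN1 and MRFAP1. FN1, the matrix glycoprotein fibronectin, had 0.850 and 0.729 5′ UTR footprints per 100 CDS footprints in Pro and 0.166 and 0.0529 in Sen. Its RNA-seq ratio was 2.51 to 2.89 in Pro and 1.88 to 2.57 in Sen, and the footprint ratio fell by 2.12 ± 0.56 on the log2 scale (edgeR adjusted p = 0.0278). MRFAP1, a small nuclear protein that binds MRG15, the product of MORF4L1, had 13.8 and 15.0 in Pro, 3 in Sen 1 and no footprint in Sen 3 (fall of 2.27 ± 0.68, edgeR adjusted p = 0.0977). Both lay below the proliferating values in both senescent libraries, as did 45.6% of all genes tested.

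**Figure D3:**
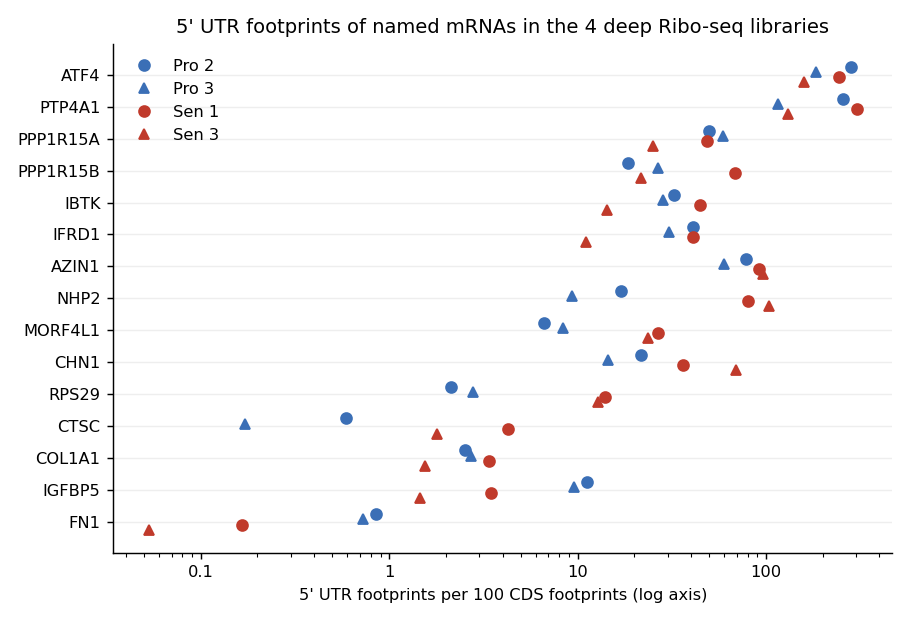
5′ UTR footprints per 100 CDS footprints (x axis, log scale) of 15 named members in the 4 deep Ribo-seq libraries; blue symbols are Pro 2 (circle) and Pro 3 (triangle), red symbols Sen 1 (circle) and Sen 3 (triangle). ATF4 lies above 100 in every library, NHP2, MORF4L1, CHN1, RPS29 and CTSC are higher in both Sen libraries, and FN1 and IGFBP5 are lower in both.

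How far these calls hold depended on the libraries. Of the 18 called members, 16 were called without Sen 3, 8 without Sen 1, 2 without Pro 2 (CTSC and NHP2) and 2 without Pro 3 (NHP2 and RPS29). No member was called without centring, where 133 had an unadjusted p under 0.05 by edgeR. In every one of these settings all of the 18 that were tested kept their direction. In simulated counts of the same depth, the test recovered 40.2% of changes of 2 and 70.7% of changes of 3 on the log2 scale among 1852 genes. Of its simulated calls, 11.4% were false. The simulated dispersion was fixed for all genes and not estimated from these libraries, so recovery in the real data may differ. Smaller changes were not simulated.

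For the mRNA alone, the same test on the 6 RNA-seq libraries asked whether the 5′ UTR share of the transcript itself differed. It called 7 of 994 members (2 higher, 5 lower), where 0.664% of 10987 genes tested were called, 0.246% higher and 0.419% lower. FAM20C, a Golgi kinase of secreted proteins, rose from 44.4, 39.1 and 40.2 5′ UTR reads per 100 CDS reads in Pro to 81.7, 68.6 and 66.8 in Sen (log2 change 0.80 ± 0.16, edgeR adjusted p = 0.00506). BTG1, an antiproliferative factor, rose from 18.6, 26.5 and 36.5 to 45.0, 42.5 and 48.1. VPS53 fell from 975, 955 and 841 to 400, 579 and 305 (log2 change -1.16 ± 0.19, edgeR adjusted p = 0.000525). ANXA2, GLCE, MYL12B and DNASE1L1 were also lower; the 5′ UTR of DNASE1L1 overlies RPL10 on the other strand. None of the 7 was among the 18 called by footprints.

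**Figure D4:**
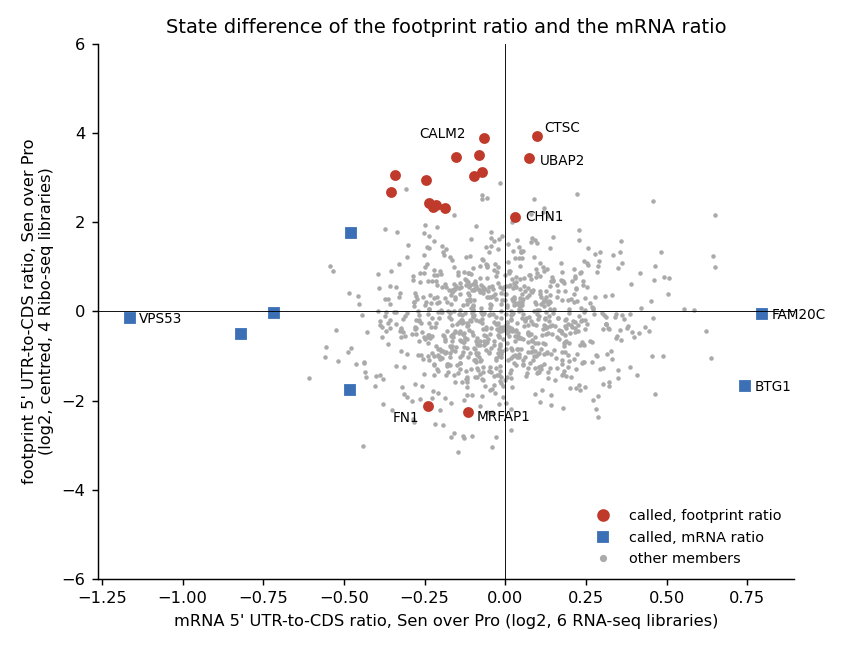
Log2 change from Pro to Sen of the mRNA 5′ UTR-to-CDS ratio (x axis, 6 RNA-seq libraries) and of the footprint ratio relative to the typical gene (y axis, 4 deep Ribo-seq libraries), 1 point per member. Red circles are members called in the footprint ratio and blue squares those called in the mRNA ratio; H2AFJ, with no Pro footprint, is not drawn and 3 further members lie outside the plotted y range. The called sets do not share a member.

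Footprint and RNA-seq columns of the 4 lysates were also fitted together, to ask which footprint ratios changed beyond the ratio of the mRNA. This test called 85 members (46 higher, 39 lower), where 5.03% of 2109 genes were called, 2.61% higher and 2.42% lower. All 18 members called by footprints alone were among them. RLE factors gave 45 higher and 68 lower, and no centring 15 higher and 52 lower. The fit shares 1 dispersion per gene between both library types, although the median SE of a member was 0.85 for the footprint ratio and 0.17 for the mRNA ratio. In simulated counts this test recovered 12.2% of changes of 2 and 42.5% of changes of 3 on the log2 scale. Of its simulated calls, 19% were false, above the threshold of 15%. Of the 85, 2 were called without Pro 3, 23 without Pro 2, 16 without Sen 1 and 43 without Sen 3.

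Matrix and matricellular genes, the secreted scaffold of fibroblasts, had 21 members. Their summed ratio was 1.86, 1.73 and 1.65 per 100 in Pro and 1.19, 0.822 and 0.399 in Sen, whereas in RNA-seq it was 6.54 to 8.40 and 7.67 to 8.01. Footprints alone called FN1 lower. The joint test called 4 of the 21 lower (FN1, LOX, TIMP3 and COL4A2) and 0 higher. Over all genes tested it called 2.42% lower and 2.61% higher. With a minimum of 30 reads the joint test called 7 of 20 lower and 2 higher, beside 127 of all 576 genes tested in either direction. In that setting footprints alone called 4 of 20 lower and 1 higher, beside 80 of 576. LOX, which cross-links collagen and elastin, had 4.50 and 2.90 in Pro and 1.16 and 0.216 in Sen, and TIMP3, a metalloproteinase inhibitor bound to matrix, had 6.23 and 4.07 against 2.08 and 0.570. COL4A2, a basement membrane collagen chain, had 1.73 and 2 against 0.575 and 0.177. The median change of the footprint ratio over the 21 was -0.97, beside -0.24 over all genes tested. None of the 4 was called in the joint test without Pro 2 or without Pro 3.

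The members of this list with the most 5′ UTR footprints, COL1A1 and COL1A2, which encode type I collagen, and DCN, did not pass. COL1A1 had 323, 798, 967 and 103 5′ UTR footprints in Pro 2, Pro 3, Sen 1 and Sen 3, which were 2.54, 2.70, 3.39 and 1.55 per 100 CDS footprints. COL1A2 had 1.63, 2.19, 1.53 and 0.393, and the small proteoglycan gene DCN 7.20, 5.12, 7.83 and 3.07. In COL1A1 and DCN the Sen 1 value lay above the Pro values, in COL1A2 just below them, and in all 3 the Sen 3 value was the lowest. Their transcripts each hold 2 upstream ATGs, while FN1 holds none.

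TOP mRNAs, which begin with a 5′ terminal oligopyrimidine tract and encode the translation machinery, had 39 members, 34 of them ribosomal proteins. A run of at least 5 pyrimidines starting in the first 10 bases was found in 89.7% of their matched transcripts, against 26.0% of the other members. That share also counts runs that start after the first base, as in RPL9, RPS7 and RPL32, whose matched transcripts do not begin with the run. The 5′ ends of the 5 called members are shown with the run in capitals, 5′ to 3′. They lie on GRCh37 at chr14:50037702-50065882 (RPS29, minus strand), chr1:24018232-24023325 (RPL11, plus), chr3:101399935-101405577 (RPL24, minus), chr3:12875984-12883081 (RPL32, minus) and chr10:79793518-79816571 (RPS24, plus).
RPS29: CTTCCTTTTacctcgttgca
RPL11: CTCTTCCTgctctccatcat
RPL24: CTTTCTTTTCgccatctttt
RPL32: agCCCTTgcgcgccaccgtc
RPS24: CTCTTTTCCTCCTTggctgt

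These mRNAs have short 5′ UTRs and low ratios. The median relative occupancy of the TOP members was -4.84, and 3 of 39 had an upstream ATG. RPS29, of the small subunit, had 2.12 and 2.78 5′ UTR footprints per 100 CDS footprints in Pro 2 and Pro 3 and 14.0 and 12.9 in Sen 1 and Sen 3 (log2 change 3.03 ± 0.60, edgeR adjusted p = 0.000337). RPL11 had 0.857 and 1.03 against 6.08 and 1.64, RPL24 0.322 and 0.814 against 4.76 and 1.53, RPL32 1.32 and 0.599 against 5.09 and 2.23, and RPS24 0.460 and 0.737 against 2.06 and 2.90. In all 5 both Sen values exceeded both Pro values, as in 6.07% of all genes tested. The joint test called 12 of 34 ribosomal proteins higher (35.3%, beside 2.61% of all genes tested) and 0 lower. Of this list it called 8 higher without Pro 2, 1 without Pro 3, 2 without Sen 1, 6 without centring and 0 with all 6 lysates and the replicate block.

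The family as a whole depended on Sen 1. The change of the footprint ratio was positive in 26 of 34 ribosomal proteins with a median of 0.90, and without centring in 21 of 34 with a median of 0.28. Without Sen 1 it was positive in 14 of 31, with a median of -0.15. The summed ratio was 7.75, 1.92 and 1.44 per 100 in Pro and 2.61, 2.76 and 1.01 in Sen, so the states overlapped. RPS20, with the most 5′ UTR footprints of the list, did not pass (13.4, 9.48, 8.80 and 4.69 in Pro 2, Pro 3, Sen 1 and Sen 3). The 5 TOP members that are no ribosomal proteins, EEF1A1 among them, all had a negative change and none passed. The deposited tables do not say to which region a footprint at the start codon was assigned, and for 5′ UTRs of this length that part was not tested.

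Stress-responsive uORF mRNAs had 8 members, and all 8 hold an upstream ATG. None was called by footprints (edgeR adjusted p from 0.433 to 0.997). The change relative to the typical gene was positive in 7 of 8 with a median of 0.64, beside -0.24 over all genes tested. Without centring it was positive in 4 of 8, with a median of 0.003. With a minimum of 30 reads 2 of 6 were called higher, where 80 of all 576 genes tested were called in either direction. ATF4 had 282 and 185 5′ UTR footprints per 100 CDS footprints in Pro 2 and Pro 3 and 245 and 159 in Sen 1 and Sen 3. Its 5′ UTR footprints numbered 155, 264, 233 and 35, and the states overlapped. PTP4A1, a phosphatase of the PRL family with 6 upstream ATGs, had 257 and 115 in Pro and 304 and 130 in Sen. In both genes the ribosome density of the 5′ UTR exceeded that of the CDS in all 4 lysates.

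PPP1R15A had 50 and 59.3 per 100 in Pro and 48.4 and 25 in Sen, on 5 to 16 footprints per library. PPP1R15B had 18.5 and 26.8 in Pro, 68.8 in Sen 1 and 21.7 in Sen 3, and was the 1 stress uORF mRNA called in the joint test (log2 change 1.53 ± 0.56, edgeR adjusted p = 0.142). That call was lost at a threshold of 0.05, and its Sen 3 value lay between the Pro values. IBTK, an inhibitor of Bruton's tyrosine kinase, had a relative occupancy of 2.21 ± 0.89 and ratios of 32.4, 28.4, 44.4 and 14.3. IFRD1 had 41.2, 30.4, 40.9 and 11.1. MDM2, the ubiquitin ligase of p53, had 12.1, 0.621, 6.70 and 3.51, and BACE1, the beta-secretase, had 0, 28.3, 21.3 and 0. The last 2 show how widely a ratio on a few footprints varied within a state.

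In the polyamine pathway, whose uORFs respond to polyamine levels, 3 members were measured and none was called. AZIN1, the antizyme inhibitor, had 78.6 and 59.7 per 100 in Pro and 91.3 and 95.8 in Sen (log2 change relative to the typical gene 1.08 ± 0.55, edgeR adjusted p = 0.521). Both Sen values of AZIN1 lay above both Pro values, as in 6.07% of all genes tested. Its relative occupancy of 0.82 ± 0.25 varied little over the lysates. ODC1, the rate-limiting enzyme of polyamine synthesis, had 9.46 and 8 against 4.55 and 0, and the spermine synthase gene SMS had 10.9 and 4.05 against 2.69 and 1.69. Both were lower in Sen, as were 45.6% of all genes tested, without passing the test.

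Initiation factors had 7 members. EIF5, the GTPase activator of eIF2, had 18.2, 19.9, 12.5 and 11.1 per 100 in Pro 2, Pro 3, Sen 1 and Sen 3. EIF4G2, which starts at a non-AUG codon, had 7.08, 4.37, 4.25 and 3.32. EIF4G1, the cap-complex scaffold, had 13, 33, 25 and 4 5′ UTR footprints. In EIF5 and EIF4G2 both Sen values lay below both Pro values, as in 45.6% of all genes tested. None of the 7 was called by footprints, and EIF2S2, the beta subunit of eIF2, was called higher in the joint test (3.85 and 3.23 in Pro, 8.87 and 2.35 in Sen). TEAD1, also with a non-AUG start, had 18.2, 8.11, 9.59 and 0. In a non-AUG gene an in-frame footprint may have been listed as 5′ UTR or as CDS, which was not tested.

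Iron-responsive elements, hairpins in the 5′ UTR that block initiation when iron is low, occur in 2 members. FTH1, the ferritin heavy chain, had 13.9, 47.8, 11.5 and 63.8 per 100 in Pro 2, Pro 3, Sen 1 and Sen 3, so libraries of the same state differed more than the states. EPAS1, a hypoxia-inducible factor, had 12.1, 33.0, 13.6 and 8.79. Neither was called.

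Of the senescence and cell cycle list, 10 genes were members. IGFBP5, a secreted binding protein of insulin-like growth factors, had by far the most 5′ UTR footprints, 776 and 1685 in Pro 2 and Pro 3 and 394 and 67 in Sen 1 and Sen 3. Per 100 CDS footprints these were 11.2 and 9.57 in Pro and 3.48 and 1.45 in Sen. The shallow libraries gave 13.6 in Pro 1 and 3.34 in Sen 2, so the states did not overlap in any library. In the 4 deep libraries, 45.6% of all genes tested were likewise lower in Sen without overlap. The RNA-seq ratio of IGFBP5 was 73.1 to 88.0 in Pro and 67.9 to 84.7 in Sen. The footprint change of -1.48 ± 0.47 missed the threshold (edgeR adjusted p = 0.159), and the joint test called it lower (-1.36 ± 0.40, edgeR adjusted p = 0.0395). HMGA1, an architectural chromatin protein, had 16.2 and 12.2 against 6.81 and 6.08, and CDK6, a G1 kinase, had 29.3, 8.39, 10.2 and 4.58. None of the other 9 was called in either test.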

How the data were processed

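For each lysate and gene symbol, the deposited tables list reads per region (5′ UTR, CDS and others). The deposited values were taken to be expected counts, unscaled and mostly whole; from 6.59% to 16.2% of nonzero 5′ UTR values were fractions. Tests had been planned on plain counts, and values were rounded to whole numbers for the fits. The submitters' processing notes name cutadapt 1.18, Bowtie 1.0.1, SAMtools 1.8 and DESeq2 1.22.2; genome build, annotation, strand and the handling of reads with several placements are not given in the sources used here. The paper's methods state a false discovery rate of 15%, which was kept as the threshold of 0.15.

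Footprint and RNA-seq ratios were tested with edgeR 4.0.16 (R 4.3.3) on 5′ UTR and CDS reads as separate columns of each library, with library as a block, region, and region by state, two-sided, for genes with at least 10 reads in each region. TMM factors within a region centred the ratio on the typical gene. The footprint fit had 2, the mRNA fit 4 and the joint fit 4 residual degrees of freedom. DESeq2 1.42.0, other filters and normalizations, kept features and leave-one-out fits were alternatives. Simulated counts were used to check the test. Groups came from the sample titles. Every pair of replicates differed beyond counting error (chi-square over its degrees of freedom, 1.30 to 9.40), so none was counted as 1 sample. The labels call the 3 cultures of a state independent, without naming donors, and p-values cover no spread beyond these samples. The edgeR test shares dispersion between genes, and its footprint p-values lie close to normal tails of the change over its SE. They therefore rest mainly on spread pooled over genes, and little on a gene's own spread over 2 libraries per state.

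The members and gene lists were chosen with earlier results of these data known. Named were the 10 highest and 5 lowest relative occupancies among members with at least 100 footprints, up to 8 of the largest called rises and falls whose centred values did not overlap, all members of 5 short lists and the 3 members with the most footprints of each other list, and those nearest the thresholds of the rule. DPP9 and OR1F1 were set aside by a rule chosen after the values were seen (a tRNA gene within 2000 bases by RefSeq and more footprints than RNA-seq reads); the other set-aside features followed the naming of MYNN and TRIM7 or a share over 25% in the shallow libraries. The remaining genes named from the footprint, joint and mRNA tests, and those of highest footprint ratio, were chosen after their values were seen. Confidence intervals are Wilson intervals. The values of 1 set-aside gene and 1 marker are not reported here.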

Additional observations from a re-analysis of the deposited data

How the results depend on the processing

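The count of 18 members called by footprints became 36 with RLE factors, 0 without centring and 11 with DESeq2. It was 0 with a minimum of 1 read (58 at an unadjusted p under 0.05 by edgeR). With a minimum of 30 reads, 76 of 561 members tested were called, beside 80 of all 576 genes tested. It was 34 with set-aside features kept, 32 of them outside those features, and 1 with all 6 libraries. With DPP9 and OR1F1 kept, an alternative chosen after seeing the data, it was 30. Over all genes tested, 42 of 2109 were called with RLE factors, 13 of 2109 with DESeq2 and 42 of 2118 with set-aside features kept. With DPP9 and OR1F1 kept, 34 of 2110 were called. Leave-one-out fits gave 2 to 28, where the lone library of a state is assumed to vary like the others. For the mRNA ratio, 7 calls became 1 without centring, 2 with DESeq2, 2 at a threshold of 0.05, 2 with the RNA-seq libraries of the 4 lysates, and 2 to 6 when each library was left out. The joint count of 85 became 32 with a minimum of 1 read, 39 at a threshold of 0.05, and 2 to 51 when each lysate was left out; apart from the replicate block, given below, its other settings stayed within 1.5 times. Over all genes tested, the joint test called 40 of 7528 with a minimum of 1 read and 42 of 2109 at a threshold of 0.05. The mRNA test called 33 of 10987 without centring, 18 of 10987 with DESeq2 and 36 of 10987 at a threshold of 0.05. With the RNA-seq libraries of the 4 lysates it called 28 of 10529. The median shift of -1.06 ranged from -1.52 to -0.50 on leaving out a library, was -0.96 with 6 libraries and -1.07 with summed reads. None of the 18 reversed its direction where it was tested; of the 85 joint calls, 72 of 75 tested kept their direction without Sen 1 and 83 of 85 with the replicate block. Few footprints per member limit all of this, and the cause of these differences was not tested.

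Whether replicate numbers pair the states could not be decided. Deviations of same-numbered libraries correlated at -0.0025, 0.0008 and 0.0322 for footprints, but pairs 1 and 2 each hold a shallow library. For RNA-seq they correlated at 0.0957, -0.123 and -0.0354, within the range of -0.19 to 0.27 of other-numbered pairs. With the replicate block, footprints gave 0 calls (9 at an unadjusted p under 0.05 by edgeR), the mRNA ratio 10 and the joint test 2. Over all genes tested the calls were 0 of 2155, 89 of 10987 and 2 of 2155.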
